A study of Mus musculus with 6 samples.

Results

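*Spen*, *Fblim1*, *Tmem82*, *Slc25a34*, *Plekhm2* and *Ddi2* lie close together on mouse chromosome 4, and their RNA was followed here in the abdominal aorta. The 6 genes are the rows of the deposited table with these symbols, 6 of 55426 listed genes, and all 6 were abundant enough to be tested. They were chosen by the difference in TPM, a share of each library corrected for transcript length, between knockout and control aortas in these same libraries, since earlier results had shown low *Slc25a34* and *Tmem82*, and their genomic neighbours were taken along. That difference is therefore given below as a description without a test.

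RNA was measured in whole abdominal aortas of 3 control and 3 *Prdm16* SMKO male mice of the C57BL/6J strain, with 1 library per labelled sample. *Prdm16* SMKO mice carried *Prdm16* fl/fl and *Myh11*-CreERT2, a tamoxifen-dependent recombinase driven in smooth muscle from a cassette on the Y chromosome, and the control mice, wild-type for *Prdm16*, carried *Myh11*-CreERT2 as well. Males of the study received tamoxifen at 75 mg/kg/day on 5 days at an age of 8 to 10 weeks. Mice for the paper's aneurysm model were used 2 weeks after tamoxifen. The interval and age at which these aortas were taken were not given in the sources used here. The paper describes the sequenced mice as adults in normal housing that had received no disease stimulus. *Prdm16* lies on the same chromosome, 12.7 Mb from *Slc25a34*, so the 3 SMKO mice differ from the controls both in the deletion and in whatever stretch of chromosome 4 came with the floxed allele. These cannot be told apart in this design.

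The neighbourhood holds genes of unlike function. *Slc25a34* encodes a member of the mitochondrial carrier family, the proteins that move metabolites across the inner mitochondrial membrane, whose own cargo is poorly known. *Tmem82* encodes a little-studied membrane protein. *Fblim1* encodes migfilin, a LIM-domain adaptor that binds filamin and kindlin where integrins join the actin cytoskeleton, structures on which contractile vessel wall cells depend. *Plekhm2* encodes SKIP, which couples the small GTPase ARL8 on lysosomes to kinesin-1. *Ddi2* encodes a protease that cleaves the transcription factor NFE2L1, the regulator of proteasome genes. *Spen* encodes a large RNA-binding corepressor that joins RBPJ, the DNA-binding partner of NOTCH, to histone deacetylase complexes.

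All 6 genes are transcribed from the minus strand and together span chr4:141467890-141723419 in GRCm38, which is 255.53 kb. In chromosomal order they are *Spen* (141467890 to 141538597), *Fblim1* (141576062 to 141606096), *Tmem82* (141613376 to 141618633), *Slc25a34* (141618824 to 141623821), *Plekhm2* (141625734 to 141664899) and *Ddi2* (141677549 to 141723419). The closest pair is *Tmem82* and *Slc25a34*, with 190 bases between them, so that the 3′ end of *Slc25a34* lies just before the start of *Tmem82*. *Slc25a34* is followed by *Plekhm2* after 1912 bases, and *Fblim1* precedes *Tmem82* by 7279 bases. The outer gaps are wider, at 12649 bases between *Plekhm2* and *Ddi2* and 37464 bases between *Spen* and *Fblim1*.

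The stretches before the start sites of *Slc25a34* and *Fblim1* are shown because these 2 genes had the 2 largest folds among members with a RefSeq window. The 250 bases before each start come from RefSeq (GRCm38.p6), which held windows for 5 of the 6 genes. They are written 5′ to 3′ on the minus strand, with matches to the searched motifs in capitals. *Fblim1* has 2 such windows, at chr4:141606053-141606302 and chr4:141599999-141600248, and *Slc25a34* has 1, at chr4:141623835-141624084.
Slc25a34: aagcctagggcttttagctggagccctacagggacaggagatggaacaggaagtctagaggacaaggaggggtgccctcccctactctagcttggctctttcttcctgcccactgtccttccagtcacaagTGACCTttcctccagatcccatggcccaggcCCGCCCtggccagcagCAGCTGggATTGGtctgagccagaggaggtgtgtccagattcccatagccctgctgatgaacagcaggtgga
Fblim1 at 141606302: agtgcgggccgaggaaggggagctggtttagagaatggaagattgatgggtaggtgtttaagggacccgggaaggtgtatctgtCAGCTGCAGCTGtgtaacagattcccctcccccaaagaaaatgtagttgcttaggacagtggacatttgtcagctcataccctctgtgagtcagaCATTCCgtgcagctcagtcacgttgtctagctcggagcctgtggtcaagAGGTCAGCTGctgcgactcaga
Fblim1 at 141600248: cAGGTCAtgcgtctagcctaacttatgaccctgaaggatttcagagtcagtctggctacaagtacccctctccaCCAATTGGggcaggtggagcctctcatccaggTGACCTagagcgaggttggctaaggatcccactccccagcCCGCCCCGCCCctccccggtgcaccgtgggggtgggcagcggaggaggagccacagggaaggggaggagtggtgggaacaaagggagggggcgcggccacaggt

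The motifs searched, on both strands, were CCAAT (the CAAT box), TATAAA (the TATA box), GGGCGG (the GC box), CACGTG (a general E-box), CAGCTG (the E-box read in muscle genes), CATTCC (read by TEAD factors), TGACCT (a nuclear receptor half-site), GATAAG (read by GATA factors) and the CArG box of serum response factor, chosen with the results known. Neighbouring matches can overlap, as CCAAT does with its own reverse complement in CCAATTGG and as TGACCT (read as AGGTCA) does with CAGCTG in the first *Fblim1* window. TGACCT occurred in the *Slc25a34* window, 119 bases before the start, and in both *Fblim1* windows, and in none of those of *Spen*, *Plekhm2* and *Ddi2*. It is found in 14.0% of 32851 RefSeq windows of the same length. CAGCTG, present in 13% of all windows, occurred in the *Slc25a34* window and in the first *Fblim1* window. CCAAT (33.8% of all windows) occurred in the *Slc25a34* window and the second *Fblim1* window. Other matches cut across this split of the genes. GGGCGG (32.7%) occurred for all 5 genes with a window, and CATTCC (12.6%) for *Spen*, *Ddi2* and the first *Fblim1* window. The CArG box, present in 1.47% of windows, and TATAAA, in 12.4%, were in none of the 6 windows. The windows of *Spen*, *Plekhm2* and *Ddi2* were richer in G and C, with 82.4%, 68.8% and 70.8%, than the *Slc25a34* window with 58.4% and the *Fblim1* windows with 52.8% and 63.6%. The median over all windows was 52.4%. These matches are letters in a window and not measured binding.

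In control aorta the 6 genes covered a wide range of levels, from near the median of tested genes to near their top. *Fblim1* was by far the most abundant, with 805 ± 157 TPM (mean ± SD, n = 3), higher than 99.5% of tested genes. *Spen* (22.8 ± 5.18 TPM), *Plekhm2* (22.2 ± 3.39 TPM), *Ddi2* (19.6 ± 3.22 TPM) and *Slc25a34* (19.5 ± 2.92 TPM) followed, and the library ranges of these 4 genes overlapped, so their order is not resolved. *Tmem82* was lowest, at 9.60 ± 3.30 TPM, and its highest control library (11.58 TPM) lay below the lowest of *Slc25a34* (16.41 TPM).

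*Slc25a34* measured 19.99, 22.20 and 16.41 TPM in control replicates 1, 2 and 3, and 2.27, 1.56 and 1.33 TPM in the corresponding *Prdm16* SMKO replicates. The lowest control library was 7.23 times the highest SMKO library, so the groups stood far apart. The mean went from 19.5 ± 2.92 to 1.72 ± 0.490 TPM, leaving 8.81% of the control level, a difference of −3.19 on the log2(TPM + 0.5) scale (SE 0.22). In whole tissue, fewer cells of a type and less RNA per cell cannot be told apart. The added 0.5 makes this scale understate the change of genes at low levels. Its place among the tested genes went from above 72.6% of them in control to above 20.1% in SMKO aorta.

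*Tmem82*, just downstream, measured 11.44, 11.58 and 5.79 TPM in control and 1.17, 1.36 and 0.64 TPM in SMKO libraries. Replicate 3 was the lowest of each group, and in control it still had 4.26 times the highest SMKO value. The mean of 9.60 ± 3.30 TPM compared with 1.06 ± 0.373 TPM, or 11% of control, and the log2 difference was −2.67 (SE 0.31). In the SMKO libraries *Tmem82* and *Slc25a34* overlapped in level, whereas in control they did not.

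*Fblim1* measured 811.49, 958.54 and 644.39 TPM in control and 278.78, 292.88 and 221.80 TPM in SMKO libraries. Every SMKO aorta had less than every control aorta, the lowest control being 2.20 times the highest SMKO library. The mean was 805 ± 157 TPM in control and 264 ± 37.6 TPM in SMKO aorta, 32.9% of control, with a log2 difference of −1.60 (SE 0.19). Even so, *Fblim1* remained above 98.2% of tested genes in SMKO aorta.

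*Plekhm2*, on the upstream side of *Slc25a34*, measured 21.63, 25.81 and 19.10 TPM in control and 17.99, 17.19 and 14.09 TPM in SMKO libraries. The groups did not overlap, but only narrowly, since the lowest control was 1.06 times the highest SMKO library. The mean was 22.2 ± 3.39 TPM in control and 16.4 ± 2.06 TPM in SMKO aorta, and the log2 difference was −0.42 (SE 0.18).

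*Ddi2* measured 18.88, 23.14 and 16.83 TPM in control and 12.08, 16.18 and 14.56 TPM in SMKO libraries. Here too the highest SMKO library lay just under the lowest control, which was 1.04 times as high. The mean was 19.6 ± 3.22 against 14.3 ± 2.06 TPM, with a log2 difference of −0.44 (SE 0.18). The same-strand gene *Rsc1a1* lies wholly within exons of *Ddi2*, over 1749 bases, so reads there can be assigned to either gene.

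*Spen*, at the other end of the stretch, measured 21.29, 28.60 and 18.59 TPM in control and 18.31, 22.21 and 17.91 TPM in SMKO libraries. The groups overlapped, with means of 22.8 ± 5.18 and 19.5 ± 2.38 TPM, and the log2 difference was −0.21 (SE 0.19).

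**Figure D1:**
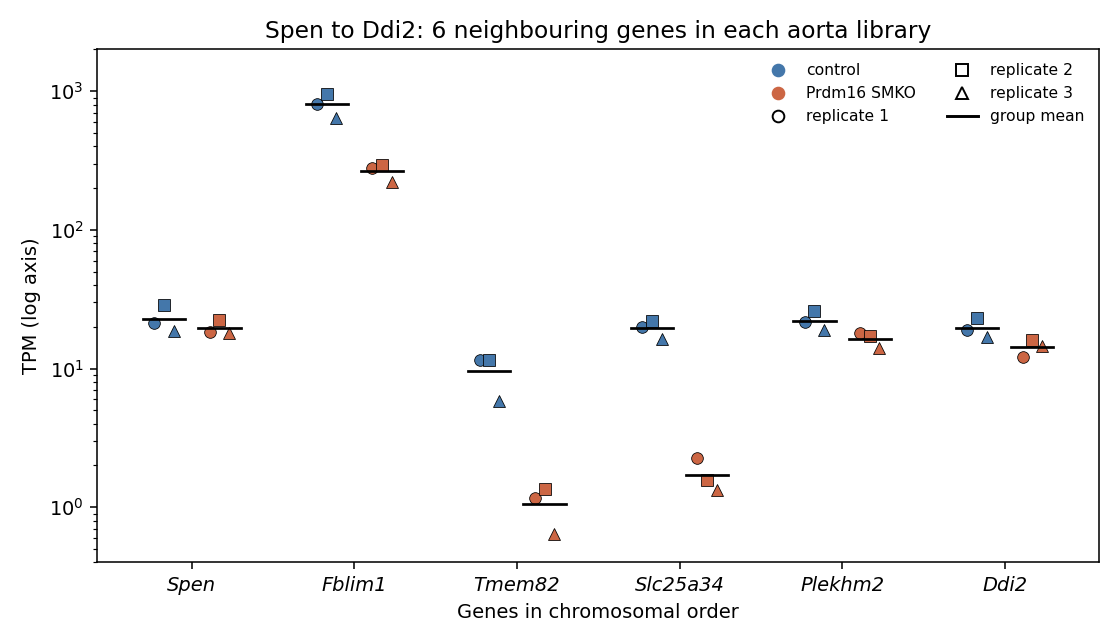
TPM (log axis) of the 6 genes in chromosomal order in each of the 3 control and 3 *Prdm16* SMKO libraries, with marker shapes for replicate numbers and black bars for group means. *Slc25a34* drops from a mean of 19.5 to 1.72 TPM and *Tmem82* from 9.60 to 1.06 TPM, while *Fblim1* stays the most abundant gene in both groups.

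Of the 6 genes, 3 passed an adjusted p of 0.05 in the limma fit over all genes (*Slc25a34*, *Tmem82* and *Fblim1*), all lower in SMKO aorta, beside 0.355% of the 15775 tested genes in either direction and 0.171% in the lower direction. Since this contrast chose the genes, nothing is read from that count. All 6 log2 differences were below 0, as were those of 45.8% of tested genes. For 5 of the 6 the groups did not overlap, with SMKO lower, beside 5.76% of tested genes.

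**Figure D2:**
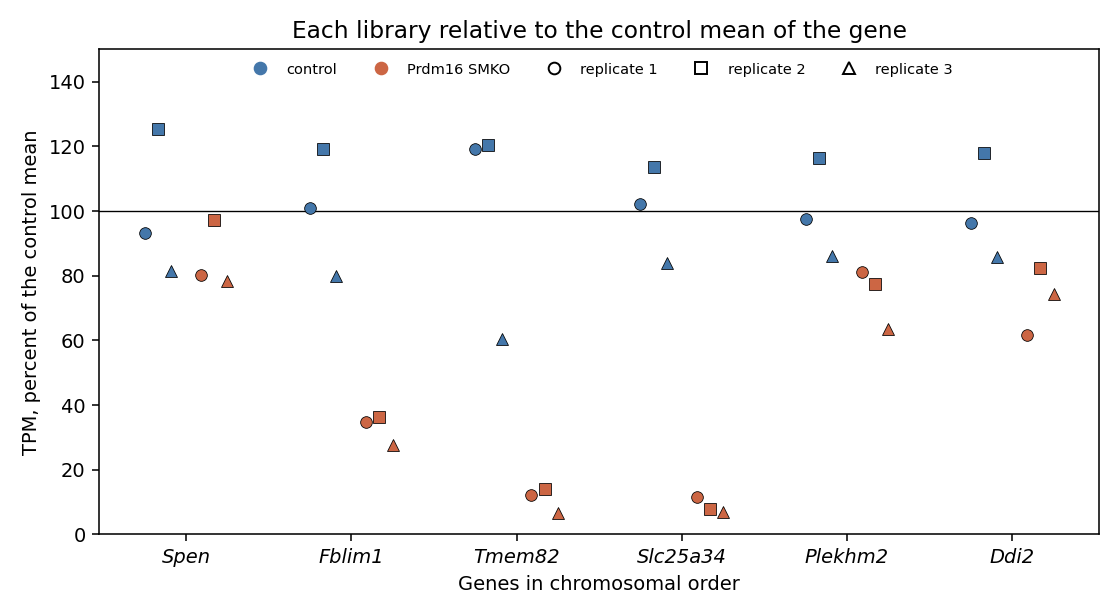
TPM of each library as a percentage of the gene's control mean, with the line at 100 marking that mean, for the 3 control and 3 *Prdm16* SMKO libraries. *Slc25a34* and *Tmem82* in SMKO aorta sit near the bottom (means of 8.81% and 11%), *Fblim1* near 32.9%, *Plekhm2* (74.0%) and *Ddi2* (72.8%) just under the controls, and *Spen* (85.3%) among them.

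The ratios between neighbours show how unevenly the group difference was spread along the stretch. *Fblim1* exceeded *Slc25a34* by a factor of 39.3 to 43.2 in the control libraries and of 123 to 188 in the SMKO libraries. The ratio of *Slc25a34* to *Plekhm2*, the pair separated by 1912 bases, was 0.859 to 0.924 in control and 0.0908 to 0.126 in SMKO aorta. In contrast, *Slc25a34* over *Tmem82* spanned 1.75 to 2.83 in control and 1.15 to 2.08 in SMKO libraries, ranges that overlap. *Fblim1* over *Plekhm2* was 33.7 to 37.5 in control and 15.5 to 17 in SMKO aorta.

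Part of the spread within the control group was shared by the whole library. In all 6 genes control replicate 2 was highest and replicate 3 lowest, an order found in 48.5% of tested genes. The single most abundant entry, *CT010467.1*, had the opposite order, with 14.1%, 22.5% and 28.8% of the TPM in control replicates 2, 1 and 3. After division by median-of-ratios size factors (0.864 to 1.13), the coefficient of variation over the 3 controls went from 15% to 2.18% for *Slc25a34*, from 19.5% to 6.43% for *Fblim1* and from 15.3% to 3.22% for *Plekhm2*. It stayed high for *Tmem82*, at 34.4% before and 25.7% after. The groups of *Slc25a34*, *Tmem82*, *Fblim1*, *Plekhm2* and *Ddi2* remained apart after this scaling and those of *Spen* still overlapped.

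The libraries were checked for their tissue and for the deletion. The 8 smooth muscle markers summed to 14917 to 25276 TPM in control and 11513 to 17648 TPM in SMKO libraries, and the groups overlapped. Of these 8, 1 did not overlap, *Cnn1*, at 1390 to 2006 TPM in control and 965 to 1371 TPM in SMKO libraries. The part of smooth muscle content in the values of the 6 genes was not tested. Of 17 marker lists, 1 narrowly separated the groups, macrophage, with 70.8 to 110.4 TPM in control and 110.8 to 201 TPM in SMKO libraries. Of its 8 genes, 3 did not overlap (*Cd68*, *C1qa* and *C1qb*), all higher in SMKO aorta, and the part of this shift in the values of the 6 genes was not tested. Of 6 markers of intestinal epithelium, *Fabp2*, *Cdx1*, *Cdx2* and *Epcam* were listed at 0 throughout, while *Vil1* was at 0.06 to 0.43 TPM and *Lgals4* at 5.38 to 10.76 TPM.

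Single libraries stood apart in other marker lists, although the groups overlapped. Neuron markers summed to 522 TPM in SMKO replicate 1, to 81.55 TPM in control replicate 2 and to 0.47 to 2.08 TPM elsewhere. Erythroid markers summed to 19568 TPM in SMKO replicate 2 and to 1143 to 4947 TPM elsewhere. White and brown adipocyte markers summed to 2019 and 746 TPM in SMKO replicate 3, against at most 782 and 284 TPM elsewhere. Leaving out each of the 6 libraries in turn, the log2 difference ranged from −3.36 to −3.06 for *Slc25a34*, from −2.98 to −2.46 for *Tmem82* and from −1.75 to −1.46 for *Fblim1*.

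*Prdm16* itself, at 154316125 to 154636873 on chromosome 4, measured 33.42, 36.83 and 30.77 TPM in control and 20.75, 27.67 and 14.77 TPM in SMKO libraries. The groups did not overlap, and SMKO aorta held 62.6% of the control mean. The log2 difference of −0.70 (SE 0.23) had an adjusted p of 0.376 by limma and an exact permutation p of 0.1, the smallest that 3 against 3 allows (two-sided). A gene-level value also counts exons outside the deleted part and cells without recombinase.

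Which other genes of the region differed was asked of the non-member genes from 0.5 Mb before *Spen* to 0.5 Mb after *Ddi2*. Of 47 listed, 22 were abundant enough to test, and none passed an adjusted p of 0.05 by limma. At an unadjusted p under 0.05 there were 6, all lower in SMKO aorta, beside 3.85% of all tested genes in that direction. In 6 of the 22 the groups did not overlap, again all lower, beside 5.76%. The median log2 difference of the 22 genes was −0.24, against 0.02 over all tested genes, with 16 genes below 0 and 6 above.

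The lower values lay on the *Spen* side. Of the 12 tested genes wholly before *Spen*, 5 had non-overlapping groups and the median log2 difference was −0.39, while of the 7 beyond *Ddi2* none did and the median was 0.01. *Hspb7*, a small heat shock protein of heart and muscle, measured 195.30, 270.32 and 162.34 TPM in control and 92.31, 90.51 and 69.52 TPM in SMKO libraries. The groups were well separated, every SMKO library lying below every control. The log2 difference of −1.29 (SE 0.21) had an adjusted p of 0.0558 by limma. *Gm13056*, a predicted gene, measured 2.42, 2.0 and 2.06 TPM in control and 0.31, 0.32 and 0.55 TPM in SMKO libraries. Its groups did not overlap either, with an adjusted p of 0.0648. *Epha2*, an ephrin receptor kinase, was at 2.3 ± 0.386 TPM in control and 1.84 ± 0.153 TPM in SMKO aorta, narrowly without overlap, at an adjusted p of 0.882.

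Farther out on the same side, 2 genes are named because of their values. *Arhgef19*, a guanine nucleotide exchange factor for RhoA, measured 8.33, 12.77 and 4.79 TPM in control and 2.63, 0.93 and 1.06 TPM in SMKO libraries. All SMKO libraries were below all controls, the log2 difference was −2.16 (SE 0.40) and the adjusted p by limma was 0.0727. *Szrd1* was at 32.0 ± 3.76 TPM in control and 23.4 ± 0.662 TPM in SMKO aorta, again without overlap, at an adjusted p of 0.435.

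Between the members or overlapping one of them, 3 other genes were tested. *AI507597*, on the plus strand across 944 exonic bases of *Tmem82*, measured 1.44, 1.38 and 1.37 TPM in control and was listed at 0 in all 3 SMKO libraries, at an adjusted p of 0.0620 by limma. The sources do not say whether counting used strand, so it is not known whether reads of *AI507597* and *Tmem82* in the shared bases were told apart. *Zbtb17*, a zinc finger partner of MYC whose end overlaps that of *Spen* by 41 bases, was at 7.26 ± 0.571 TPM in control and 6.46 ± 0.450 TPM in SMKO aorta, at an adjusted p of 0.912. *B330016D10Rik* was at 1.81 ± 0.707 and 1.3 ± 0.383 TPM, at an adjusted p of 0.894. The groups overlapped for both.

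On the *Ddi2* side the nearest tested genes gave small differences. *Dnajc16*, a J-domain protein, was at 3.80 ± 0.966 TPM in control and 3.77 ± 0.495 TPM in SMKO aorta, a log2 difference of 0.01. *Casp9*, the initiator caspase of the mitochondrial apoptosis pathway, was at 7.5 ± 0.430 and 7.30 ± 1.63 TPM, a log2 difference of −0.06. *Efhd2*, a calcium-binding actin regulator, was at 58.1 ± 9.28 and 65.5 ± 9.65 TPM, a log2 difference of 0.17. None of the 3 passed by limma, with adjusted p of 0.996, 0.987 and 0.906, and the groups of each overlapped.

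**Figure D3:**
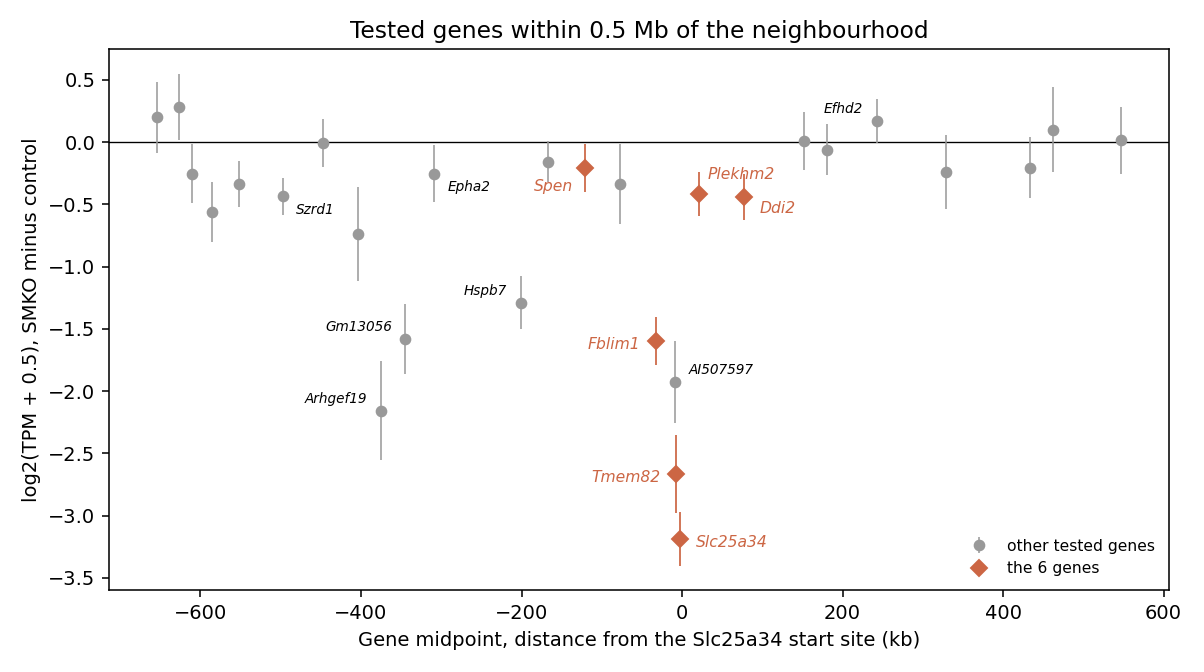
Difference of the group means on the log2(TPM + 0.5) scale (*Prdm16* SMKO minus control, bars ± 1 SE) against the distance of the gene midpoint from the *Slc25a34* start site in kb, for the 6 genes (diamonds) and the 22 other tested genes within 0.5 Mb (circles). *Slc25a34*, *Tmem82* and *Fblim1* form the deepest dip at −3.19, −2.67 and −1.60, *AI507597* lies within it, *Arhgef19*, *Gm13056* and *Hspb7* form another on the left, and the 7 genes to the right of *Ddi2* lie around 0.

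Along chromosome 4 non-overlapping groups were also found past the neighbourhood on the side of *Prdm16*, though unevenly from bin to bin. Counted in 2-Mb bins from the *Slc25a34* start site without the 6 genes, 7 of 19 tested genes in the bin just before it had non-overlapping groups, all lower in SMKO aorta, and 2 of 10 in the bin just after it. In the next bins toward *Prdm16* these counts were 4 of 6, 9 of 10 and 19 of 42 genes, of which 3, 9 and 11 were lower. From 8 to 14 Mb they were 3 of 16, 4 of 16 and 5 of 28, the last bin holding *Prdm16*, with 2, 4 and 2 lower. In the bin from 14 to 16 Mb, beyond *Prdm16*, the count was 11 of 37, with 8 lower. The bin from 4 to 6 Mb stood out, although it held few genes, since the median log2 difference over its 10 genes was −1.70. These 10 all have zinc finger (Zfp, Znf) or predicted-gene (Gm) symbols. Where such genes are closely similar, counting can split reads among them, so the 10 may not be independent. On the other chromosomes the groups of 12.5% of tested genes did not overlap, and over the whole table those of 12.8%. In the 9 bins from 20 to 2 Mb on the far side of *Slc25a34* the share was 8.0% to 21.1%.

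Of these non-member genes, 5 between *Slc25a34* and *Prdm16* passed an adjusted p of 0.05 by limma, and they are named because of that. *Gm13212*, *Znf41-ps* and *Zfp982* fell, with log2 differences of −3.41, −2.83 and −3.33 at 3.98, 4.20 and 5.88 Mb from *Slc25a34*. *Zfp990* rose by 2.64 at 3.90 Mb and *Rbp7*, a retinol-binding protein, by 1.80 at 7.83 Mb. *Zfp982*, *Zfp990* and *Gm13212* belong to a cluster of closely similar zinc finger genes, among which the authors' counting can split reads, so their single values are uncertain.

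**Figure D4:**
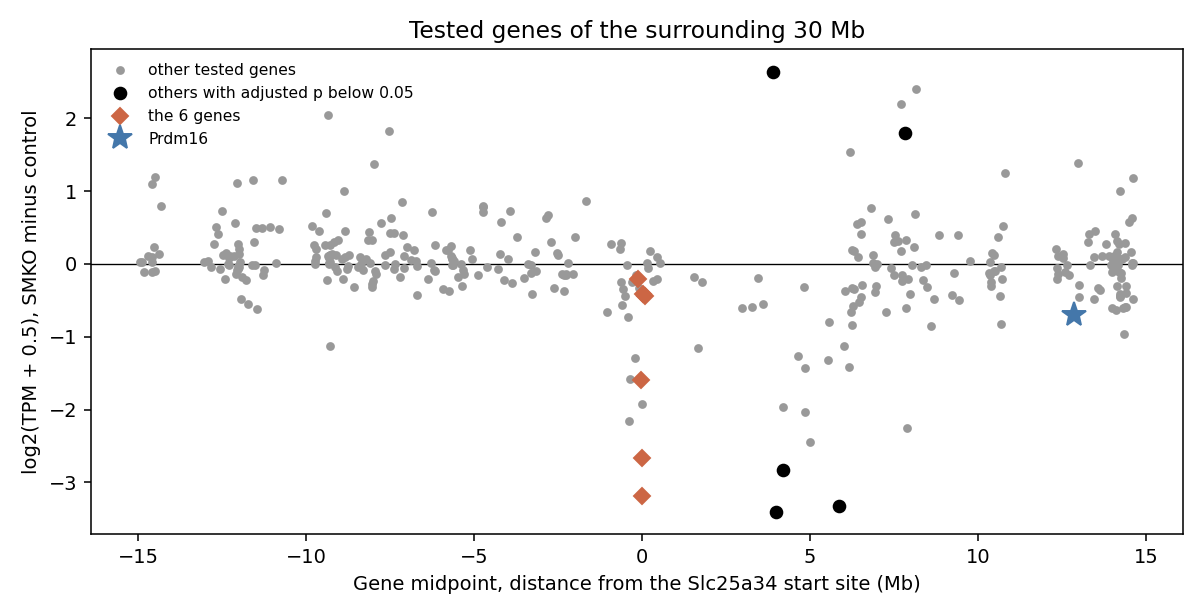
Difference of the group means on the log2(TPM + 0.5) scale (*Prdm16* SMKO minus control) against the distance of the gene midpoint from the *Slc25a34* start site in Mb, for tested genes within 15 Mb on either side. Large circles are other genes with an adjusted p below 0.05, and the star is *Prdm16* (−0.70). Low points gather at 0 Mb and between 4 and 6 Mb. The median of that bin, which holds only zinc finger and predicted genes, was −1.70.

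Genes related to the members other than *Tmem82* were followed in 5 lists, to see whether they moved as the members did. For *Slc25a34* the list holds other genes of its carrier family, not known partners. The other lists hold genes of a shared function. None of the 163 tested list genes passed an adjusted p of 0.05 by limma, beside 0.355% of all tested genes. The unadjusted p was below 0.05 for 9 (7 lower and 2 higher in SMKO aorta), beside 8.74%. From these aortas the paper called more genes, also at an adjusted p below 0.05, by a test it does not name. Its supplement places *Itgb3*, *Ilk*, *Fermt2*, *Src* and *Lims2*, all of the adhesion list below, among its lower genes. The lack of limma calls here therefore does not mean that the list genes were unchanged. The lists are described by their counts below.

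Among mitochondrial carriers, 43 of 52 listed genes were tested and 32 had a log2 difference above 0. The median was 0.10, against 0.02 over all tested genes. Without SMKO replicate 3, the library with the most adipocyte marker RNA, 25 were above 0 and the median was 0.06, and without control replicate 3 these were 20 and −0.01. The 2 most abundant carriers, the adenine nucleotide translocator *Slc25a4* (224 ± 40.9 TPM in control, 226 ± 20.7 TPM in SMKO aorta) and the phosphate carrier *Slc25a3* (128 ± 21.8 and 129 ± 9.11 TPM), overlapped between the groups. *Ucp2*, an uncoupling protein, measured 16.77, 15.08 and 14.45 TPM in control and 20.07, 36.09 and 36.63 TPM in SMKO libraries. Every SMKO library lay above every control, with an adjusted p of 0.225 by limma. *Slc25a53* measured 4.72, 4.10 and 3.39 TPM in control and 1.57, 2.23 and 1.47 TPM in SMKO libraries, a log2 difference of −1.02 with an adjusted p of 0.155. Within the 39 tested genes named Slc25a, *Slc25a34* ranked 11th by level in control and 39th, the last, in SMKO aorta, where its libraries overlapped those of *Slc25a53* and *Slc25a15* just above it. Since low SMKO values chose *Slc25a34*, nothing is read from this last place.

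Among integrin and filamin adhesion genes around *Fblim1*, 27 of 30 were tested, 18 had a log2 difference below 0, and the median was −0.18. The groups did not overlap for 3 of them (*Itgb3*, *Csrp1* and *Fermt2*), all lower in SMKO aorta, beside 5.76% of all tested genes. *Itgb3*, the integrin β3 chain, measured 52.81, 67.92 and 43.71 TPM in control and 28.69, 32.29 and 19.58 TPM in SMKO libraries, a log2 difference of −1.02 (SE 0.23) with an adjusted p of 0.150. *Csrp1*, a LIM-domain protein of smooth muscle actin bundles, was at 1277 ± 254 and 837 ± 162 TPM, without overlap, at an adjusted p of 0.424. *Flna*, the filamin that migfilin binds, was at 2487 ± 722 and 2068 ± 531 TPM, and its groups overlapped. *Parvb*, a parvin, had 20.49 TPM in SMKO replicate 2 and 3.89 and 4.85 TPM in the other SMKO libraries, against 2.84 to 4.13 TPM in control. Its log2 difference of 0.97 thus rests on 1 library and becomes 0.26 without it.

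Among lysosome transport genes around *Plekhm2*, all 25 were tested, 16 were above 0 and the median was 0.04. *Lamp1* and *Rab7*, the abundant lysosomal membrane glycoprotein and late endosomal GTPase, were at 273 ± 34.9 and 165 ± 28.7 TPM in control and at 276 ± 20.01 and 169 ± 10.8 TPM in SMKO aorta. *Klc3*, a kinesin light chain, measured 16.89, 15.53 and 11.35 TPM in control and 10.69, 8.76 and 7.62 TPM in SMKO libraries, without overlap, at an adjusted p of 0.361. *Kif5a*, a neuronal kinesin-1 heavy chain, was at 12.87 TPM in SMKO replicate 1 and at 0.51 and 0.42 TPM in the other SMKO libraries. In control it was at 1.97 TPM in replicate 2 and at 0.48 and 0.22 TPM in the others. Its log2 difference of 0.94 turned to −0.32 without SMKO replicate 1. Neuron markers were highest in that library and next highest in control replicate 2.

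Among proteasome recovery genes around *Ddi2*, 43 of 44 were tested, 18 were above 0 and 25 below, and the median was −0.04. None had non-overlapping groups or an unadjusted p under 0.05. *Nfe2l1*, the substrate of DDI2, was at 173 ± 25.8 TPM in control and 186 ± 8.81 TPM in SMKO aorta. The proteasome subunit *Psmb6* was at 160 ± 19.2 and 154 ± 15.5 TPM. The extremes of the list were *Psmd2*, with a log2 difference of −0.29, and the assembly factor *Pomp*, with 0.18.

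Among NOTCH and corepressor genes around *Spen*, 25 of 26 were tested, 11 were above 0 and 14 below, and the median was −0.06. *Heyl*, a NOTCH target, was at 58.6 ± 10.5 TPM in control and 42.4 ± 7.10 TPM in SMKO aorta, a log2 difference of −0.46 with an adjusted p of 0.546. *Maml3*, a mastermind coactivator, measured 1.45, 1.52 and 1.31 TPM in control and 2.07, 2.69 and 1.84 TPM in SMKO libraries. Every SMKO library lay above every control, with an adjusted p of 0.673 by limma. The corepressor *Ncor1* (87.2 ± 11.5 and 90.3 ± 3.32 TPM) and *Fhl1* (788 ± 153 and 930 ± 153 TPM) overlapped between the groups.

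**Figure D5:**
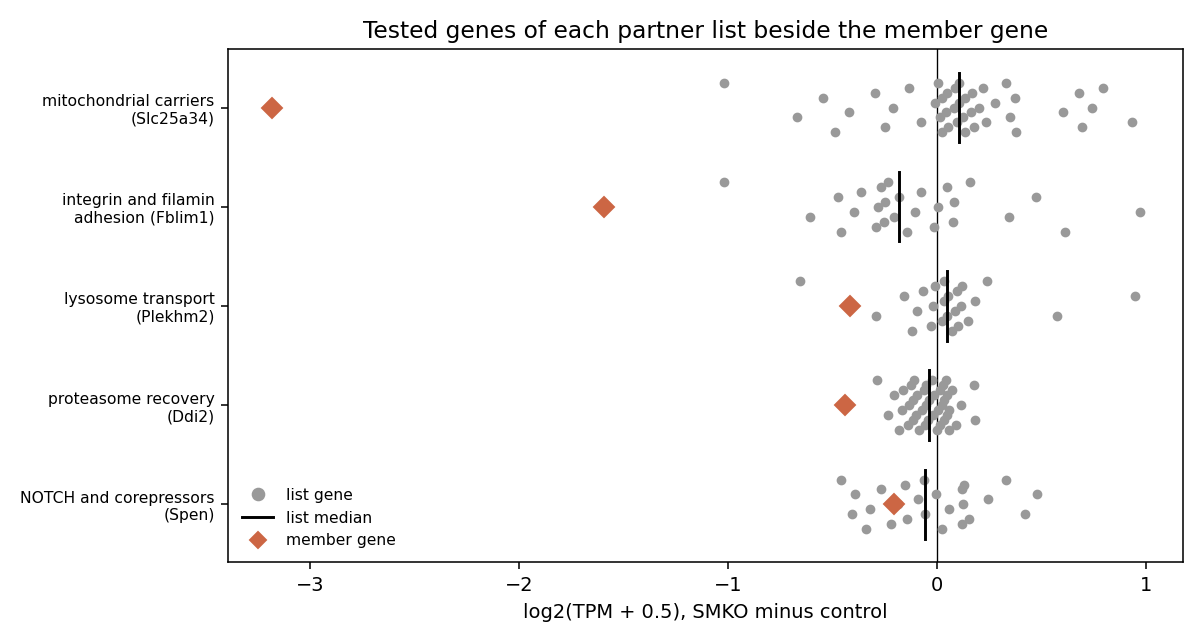
Difference of the group means on the log2(TPM + 0.5) scale (*Prdm16* SMKO minus control) for the tested genes of each partner list (circles, with a black bar at the list median) beside the member gene (diamond). *Slc25a34* and *Fblim1* lie below every gene of their lists, and the list medians lie between −0.18 and 0.10. The members, unlike the list genes, were chosen with this contrast known, so nothing is read from their place.

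The genes whose values over the 6 libraries were most like those of *Slc25a34*, *Tmem82* and *Fblim1* were found by Pearson correlation of log2(TPM + 0.5). The 6 libraries form 2 groups, so that r over them mostly records a group difference, and no p is given. For *Slc25a34* the closest included *Gm17241* (r = 0.993), listed at 0 in every SMKO library against 3.51 ± 0.361 TPM in control, the zinc finger gene *Zfp982* (r = 0.993), the angiopoietin *Angpt4* (r = 0.991, 16.4 ± 2.56 against 4.51 ± 1.08 TPM) and *AI507597* (r = 0.991). For *Tmem82* they included the stress-induced factor *Atf3* (r = 0.998, 79.1 ± 17.8 against 24.6 ± 4.64 TPM), *Pxylp1*, *Zfp991* and *Fblim1* (r from 0.996 to 0.997). For *Fblim1* they included *Pxylp1*, the connexin 43 gene *Gja1*, *Tmem82* and *Zfp991* (r from 0.995 to 0.999). Among the members themselves, r was 0.979 for *Slc25a34* with *Tmem82*, 0.985 for *Slc25a34* with *Fblim1* and 0.996 for *Tmem82* with *Fblim1*, and 0.499 for *Slc25a34* with *Spen*.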

How the data were processed

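The deposited table gives RNA levels as TPM, made by the authors from reads of polyadenylated RNA of 3 control and 3 *Prdm16* SMKO aortas. The submitters' processing notes name cutadapt 2.3, FastQC 0.11.8, STAR 2.7.8a, RSEM 1.3.3, MultiQC 1.7 and GRCm38, and whether counting used strand is not given in the sources used here. TPM keeps no depth, so no counting error or detection limit could be given, although 40 M pairs of 151 bp reads per sample were obtained on average, per the labels. The libraries had 20332 to 22100 genes above 0, with mitochondrial genes taking 15.8% to 27.4% of the TPM and the entry *CT010467.1* 13.8% to 28.8%. Because a TPM is a share of the library, a large change of abundant genes shifts all others.

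Rows averaging 0.5 TPM or more were fitted on log2(TPM + 0.5) with limma 3.58.1 (R 4.3.3), with group as the term and a trended prior. P-values were two-sided, adjusted by Benjamini-Hochberg over 15775 genes and called below 0.05. The fit was tested on simulated data. Alternatives were other pseudocounts, minimums, scalings, priors, array weights, a replicate block and leaving out each library. Coordinates are from GENCODE M21. Tables were handled in Python 3.11.15 with pandas 2.3.3.

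The genes, the 5 lists of related genes and the searched motifs were chosen with earlier results of these data known. Named were the members, *Prdm16*, every tested gene between or overlapping the members and the 3 nearest beyond them on each side, the extremes, called genes and 2 most abundant genes of each list, the 5 genes most correlated with each of *Slc25a34*, *Tmem82* and *Fblim1* (of which 1 is not reported here), and marker lists that separated the groups. *Arhgef19*, *Szrd1*, *Gm13212*, *Znf41-ps*, *Zfp990*, *Rbp7*, *Slc25a15* and *CT010467.1*, and the single smooth muscle, macrophage and intestinal markers, were named after their values were seen. *Ilk*, *Fermt2*, *Src* and *Lims2* were named because the paper lists them.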

Additional observations from a re-analysis of the deposited data

How the results depend on the processing

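With 3 libraries per group and no depth, small differences at low levels could not be resolved. The limma count over all genes was 56 and moved to 10 with no expression minimum (more genes tested), 153 with median-of-ratios scaling (60 higher, 93 lower, against 29 and 27), 129 with quantile normalization (46 higher, 83 lower), 33 with no trend, 112 with a robust prior and 494 with array weights. Leaving out 1 library gave 5 to 61 calls, with 17, 5 and 17 without control replicates 1, 2 and 3 and 28 without SMKO replicate 2. Of the 6 members, which this contrast chose, 3 passed in the reported fit and 2 with no trend. Only 1 passed with no expression minimum, with a replicate block, or without control replicate 1 or 2. These counts are a description only. The log2 difference of *Slc25a34* was −3.45 with a pseudocount of 0.1.

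Of the non-member genes in the neighbourhood, none was called in the reported fit, 1 with a pseudocount of 0.1 (*Hspb7*) or no minimum (*AI507597*), 2 with a minimum of 2 TPM or no trend, 3 with median-of-ratios scaling or a robust prior, 4 with quantile normalization and 5 with array weights, all lower. Without 1 library it was 0 to 1, the call being *Arhgef19* without SMKO replicate 1. *Hspb7* had adjusted p of 0.0065 to 0.179 over the alternatives, *Gm13056* of 0.00688 to 0.318, *AI507597* of 0.00716 to 0.288 and *Arhgef19* of 0.00751 to 0.283. In the lists, *Itgb3* was called with median-of-ratios scaling and array weights (1 gene each), *Klc3* and *Slc25a53* with array weights (1 each) and *Ucp2* without SMKO replicate 1 (0 to 1 when a library was left out). The cause of these changes was not tested.

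*Prdm16* had adjusted p of 0.0834 to 0.686. Among the named genes, signs turned for 9. *Casp9* was 0.0072 and *Dnajc16* −0.0052 with array weights, and *Dnajc16* was −0.10 with quantile normalization. Without 1 library the log2 differences ranged from −0.17 to 0.13 for *Casp9*, from −0.17 to 0.17 for *Dnajc16*, from −0.027 to 0.16 for *Ncor1*, from −0.32 to 1.61 for *Kif5a*, from −0.050 to 0.12 for *Lamp1*, from −0.049 to 0.19 for *Rab7*, from −0.074 to 0.15 for *Slc25a3*, from −0.093 to 0.16 for *Slc25a4* and from −0.14 to 0.034 for *Psmb6*.

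Samples with the same replicate number did not deviate together (correlations of −0.131, −0.11 and 0.0188, and 0 of 3 numbers correlated best with itself). The numbers were therefore not used as pairs. With 3 libraries per group, some of which stood apart in marker lists, this check cannot exclude a pairing. A replicate block gave 4 calls over all genes and none among the neighbourhood's other genes.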
